A study of Mus musculus with 18 samples.

Results

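The chemokines Ccl1, Ccl3, Ccl4, Ccl5, Ccl9, Xcl1 and Cxcl10, secreted proteins that activated CD8+ T cells can make, are described here as 7 of the 18194 mouse genes measured. They were chosen by name, and each was read from the probe set (the group of array probes for 1 transcript) with the highest mean over all arrays. For 6 of the 7 genes that was the sole probe set with 1 gene symbol, and Ccl9 had a second one. RNA came from OT-I CD8+ T cells of male mice, whose transgenic T cell receptor recognises an ovalbumin peptide and which carry Thy1.1. All 6 groups shared the same start, 48 hours of priming on irradiated C57BL/6 splenocytes loaded with that peptide, followed by enrichment of viable cells over Ficoll. The cells were then reseeded for 24 hours, without cytokine in the media control group and in the other groups with 100 ng/ml of 1 soluble mouse cytokine made by recombinant means, namely IL-21, IL-15, IL-7, IL-4 or IL-2. There were 3 biological replicates per group and 18 Affymetrix mouse arrays. As a model the design is limited to T cells of 1 transgenic specificity, primed and cultured in vitro, and to 1 dose and 1 time.

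Chemokines act on G protein-coupled receptors and set up the gradients along which leukocytes move. Ccl3, Ccl4 and Ccl5 (MIP-1 alpha, MIP-1 beta and RANTES) are inflammatory chemokines, of which Ccl3 and Ccl5 bind CCR1, and effector CD8+ T cells release all of them after antigen contact. Ccl9 is a mouse ligand of CCR1, Xcl1 (lymphotactin) draws cross-presenting dendritic cells through XCR1, Cxcl10 is an interferon-induced ligand of CXCR3, and Ccl1 is a ligand of CCR8. The cytokines compared signal through receptors that share the common gamma chain.

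Levels are log2 values after quantile normalization, which gives every array the same distribution. The background level, 7.03, is the 95th percentile of mean levels over 39 genes of other tissues, below which the size of a difference is not exact. Of these 39 genes, 2 lay above it, Mbp and Tg (11.16 and 10.58 in media control), and they raise this percentile. The RNeasy kit had served for replicates 1 and 2, and TRIzol followed by Direct-zol for replicate 3. In IL-2, IL-15 and media control, replicate 3 was deposited on a lower scale (array medians of 4.47 to 4.52, against 5.76 to 5.84 in the other 15 arrays). On the deposited values, the 3' probe set of actin exceeded its 5' probe set by 0.589 to 0.684 in these 3 arrays. In replicate 3 of IL-4, IL-7 and IL-21 the excess was 0.385, 0.372 and 0.395, above all RNeasy arrays (0.188 to 0.308). All 10 measured CD8+ T cell markers lay above background, and against media control 7 of them fell under IL-2 (Cd5 by 1.51), 3 under IL-4 and 1 each under IL-7 and IL-21, Cd8a in no comparison. Of 18 myeloid markers, 3 lay above background in their mean over the arrays, as did 4 of 13 markers of B cells. Of the B cell markers, IL-2 had 5 that fell, IL-4 had 1, IL-7 had 3 and IL-21 had 2, each time with Cd74 among them (-2.31 with IL-2). The part of these markers in the chemokine differences was not tested. Arrays with the same replicate number deviated together, so the p with replicate number as a block in the fit is printed wherever it changed a call. Having 3 arrays in a group limits the precision. The p-values set each difference against the spread within groups, taken over all 6 groups. In the main fit this spread includes the shift by replicate number.

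The 7 genes covered a wide span of levels. Ccl4 and Ccl5 were at or above background in all 18 arrays, Ccl3 in 16 and Xcl1 in 15, while Ccl9 reached it in 7, Cxcl10 in 4 and Ccl1 in 0. Between the highest and the lowest group mean, Ccl3 spanned 4.58, Ccl4 4.36, Xcl1 3.95, Ccl9 3.48 and Ccl5 2.40 on the log2 scale. Cxcl10 spanned 1.09 and Ccl1 0.57.

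**Figure D1:**
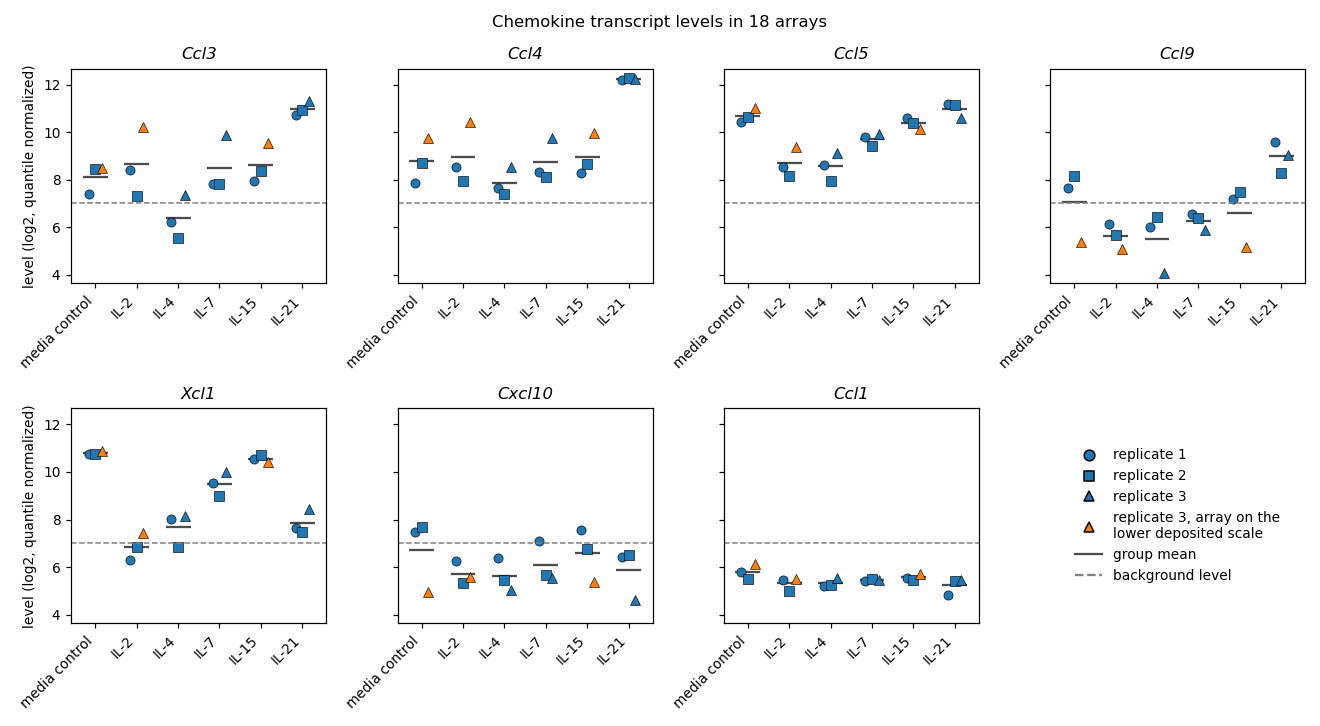
Level of each chemokine transcript (vertical axis, log2 after quantile normalization) in the 6 groups (horizontal axis), 1 point per array; circles, squares and triangles are replicates 1, 2 and 3, orange triangles the 3 arrays deposited on a lower scale, bars the group means and the dashed line the background level of 7.03. Ccl4 stands at 12.17 to 12.26 with IL-21 and at 10.42 or lower in every other array, and Xcl1 stands at 10.42 to 10.90 under IL-15 and in media control.

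The first question was which chemokine transcripts differed from media control after 24 hours with each cytokine. Under IL-21, Ccl3 and Ccl4 rose and Xcl1 fell. Under IL-2 as under IL-4, Ccl5 and Xcl1 fell and no member rose. With IL-7 and IL-15 no member passed in the main fit, which has no replicate block. With the block, Ccl5 and Xcl1 were lower with IL-7 (adjusted p = 0.0299 and 0.00664, limma). In counts, IL-2 moved 2 of the 7 members (15.8% of all genes were called in this comparison), IL-4 2 (9.07% of all genes), IL-7 0 (1.68%), IL-15 0 (0%) and IL-21 3 (6.67%), by limma with p adjusted over all genes. At an unadjusted p under 0.05 the members counted 2 with IL-7 and 0 with IL-15, and of all genes 2579 (14.2%) and 390 (2.14%) reached it. The 7 members had a median change of -0.99 under IL-2, -1.57 under IL-4 and -0.60 under IL-7, and of -0.24 under IL-15 and 0.27 under IL-21, while the median over all genes stayed between -0.02 and 0.01. With the replicate block the members called numbered 4 for IL-2 (30.6% of all genes), 5 for IL-4 (25.8%), 5 for IL-21 (21.1%), 2 for IL-7 (16.3%) and 0 for IL-15 (0%). Without replicate 3 of every group IL-2 and IL-4 each had 4 members called, and without replicate 1 or replicate 2 IL-21 had 1, Xcl1. The 5 comparisons share the media control arrays. In RNA from bulk cultures, fewer cells that make a transcript and less of it per cell cannot be told apart.

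**Figure D2:**
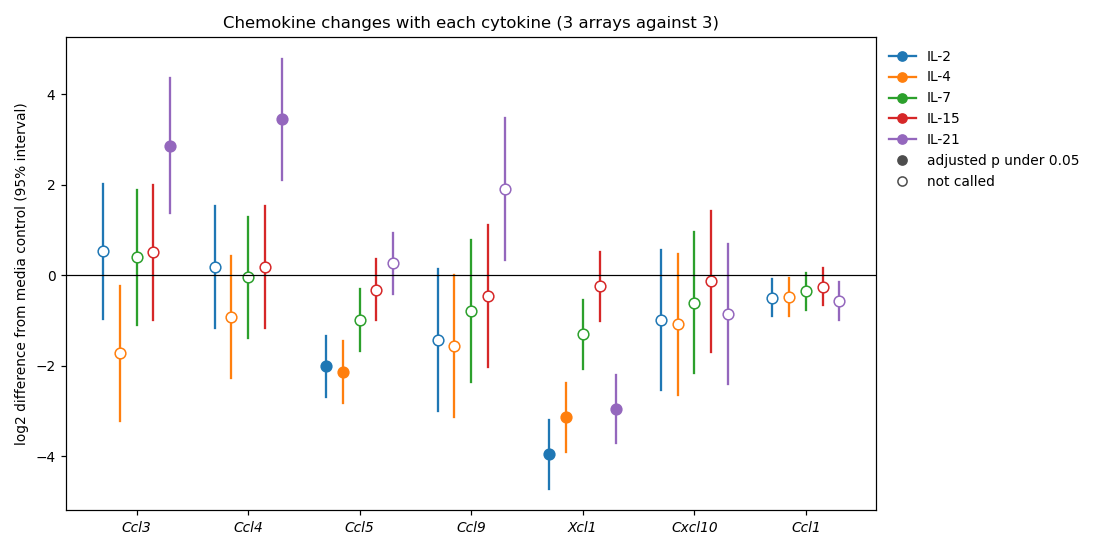
Log2 difference of each chemokine from media control (vertical axis) with its 95% interval, for the 5 cytokines in colour, 3 arrays against 3. Filled points have an adjusted p under 0.05 in the main fit, which has no replicate block, and open points do not. The filled points are Ccl3 and Ccl4 above 0 with IL-21, Ccl5 below 0 with IL-2 and IL-4, and Xcl1 below 0 with these and with IL-21.

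Ccl4 rose most of the members under IL-21. Its levels with IL-21 were 12.17, 12.26 and 12.22, against 7.85, 8.72 and 9.76 in media control. All 3 IL-21 arrays lay above every array of the other 5 groups. The rise over media control was 3.44 on the log2 scale (10.9-fold, SE 0.63, adjusted p = 0.00300), and it was 3.93 within the RNeasy replicates and 2.47 within replicate 3. Leaving out replicate 1 or replicate 2 from every group ended this call (adjusted p = 0.161 and 0.0954), at differences of 3.04 and 3.41. The 3 IL-21 arrays had an SD of 0.05, and the other groups had SDs of 0.59 to 1.29, within which replicate 3 was the highest array each time.

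The other groups lay closer together for Ccl4. Its levels were 8.52, 7.95 and 10.42 with IL-2 and 8.31, 8.12 and 9.76 with IL-7. With IL-15 they were 8.27, 8.67 and 9.95, and with IL-4 7.67, 7.39 and 8.52. These 4 groups and media control overlapped, and the differences from media control were 0.19 with IL-2 (95% interval -1.16 to 1.53), -0.05 with IL-7 (-1.39 to 1.295), 0.19 with IL-15 (-1.16 to 1.53) and -0.92 with IL-4 (-2.26 to 0.42). In the order of levels (IL-21, IL-15, IL-2, media control, IL-7, IL-4) the sole step between neighbours that passed was that from IL-21 to IL-15. IL-4 and IL-15 differed by -1.105 (IL-4 minus IL-15), with an adjusted p of 0.519 without and 0.0457 with the replicate block.

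Ccl3, which lies next to Ccl4 on chromosome 11, had the same highest group. Its levels with IL-21 were 10.71, 10.92 and 11.29, against 7.40, 8.46 and 8.47 in media control. The lowest IL-21 array stood above the highest array of any other group, which was 10.20 in replicate 3 of IL-2. The rise was 2.87 (7.29-fold, SE 0.70, adjusted p = 0.0201), 2.89 within the RNeasy replicates and 2.82 within replicate 3. This call was lost without replicate 1 of every group (adjusted p = 0.335) or replicate 2 (0.131), without replicate 1 of media control (0.0740), and without replicate 1, 2 or 3 of IL-21 (0.0533, 0.0552 and 0.0769). The size stayed between 2.51 and 3.09 over all arrays or replicate numbers left out.

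At the other end, Ccl3 was lowest with IL-4. Its levels there were 6.24, 5.56 and 7.37, so that 1 of the 3 IL-4 arrays reached background. All 3 lay below the media control arrays, and the difference was -1.72 (SE 0.70), with an adjusted p of 0.163 without and 0.00611 with the replicate block. With IL-2 the levels of Ccl3 were 8.41, 7.32 and 10.20, with IL-7 7.82, 7.80 and 9.89, and with IL-15 7.95, 8.37 and 9.55. Those 3 groups overlapped media control, with differences of 0.53 (95% interval -0.96 to 2.02), 0.40 (-1.09 to 1.88) and 0.51 (-0.98 to 2.00). The order of group means was IL-21, IL-2, IL-15, IL-7, media control and IL-4. Its first step and its last passed with the replicate block and not in the main fit, which has no block.

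Ccl9 also had its highest group with IL-21, at lower levels. It read 9.60, 8.29 and 9.04 with IL-21 and 7.65, 8.17 and 5.37 in media control. The groups did not overlap, but the lowest IL-21 array and the highest control array were 8.29 and 8.17. The difference was 1.91 (SE 0.74), with an adjusted p of 0.161 without and 0.0113 with the replicate block, and it was 1.04 within the RNeasy replicates and 3.67 within replicate 3. A second Ccl9 probe set followed the first over the 18 arrays (Pearson r = 0.968) and was likewise highest with IL-21, at 7.99 ± 0.96 (SD, n = 3) against 6.24 ± 1.18 in media control.

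Every array of IL-2, IL-4 and IL-7 was below background for Ccl9. IL-2 gave 6.15, 5.66 and 5.07, IL-4 gave 6.01, 6.42 and 4.06, and IL-7 gave 6.54, 6.38 and 5.90. Against media control the differences with IL-2 and IL-4 were -1.43 (adjusted p = 0.258, 0.0360 with the replicate block) and -1.57 (0.244, 0.0278 with the block). Without replicate 3 of every group, which was the lowest control array, they were -2.07 (adjusted p = 0.00397) and -1.75 (0.0145). Since background bounds these groups, and each of their arrays was set to that level, IL-21 was at least 3.86-fold above IL-2, IL-4 and IL-7 (adjusted p = 0.0113, 0.0113 and 0.0787, the last 0.00229 with the replicate block). With IL-15 the levels were 7.19, 7.47 and 5.18, which overlapped media control. The summed level of the 18 myeloid markers was 12.47 to 13.56 in media control, 10.99 to 11.67 with IL-2, 10.93 to 11.13 with IL-4, 11.72 to 11.98 with IL-7, 12.12 to 12.84 with IL-15 and 11.73 to 12.39 with IL-21. Of these 18, Adgre1, Itgam, Cd14 and Csf1r were below background with IL-21 (4.88, 4.44, 4.92 and 6.61) and in media control (4.66, 3.80, 5.24 and 6.83), and Lyz2 was 7.65 and 9.34. Others lay above background in media control, namely Ctss (12.27), Cd68 (7.96), Fcer1g (7.72) and Mpeg1 (7.64). By limma 2 of the 18 fell with IL-2, Ctss (-1.52, adjusted p = 4.7e-04) and Cd68 (-1.45, adjusted p = 0.0286), and 1 fell with IL-4. Of all genes, 15.8% were called with IL-2 and 9.07% with IL-4. The part of other cells in the Ccl9 values was not tested.

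For the members with higher levels under IL-21 for which the promoter table held an entry, Ccl3 and Ccl9, the 250 bases before the start of the gene are printed, and below them those of Xcl1, which moved the opposite way with IL-21. The sequences are from RefSeq on GRCm38.p6, where 5 of the 7 members had an entry and Ccl4 and Ccl5 did not. Ccl3 is at chr11:83649379-83649628, Ccl9 at chr11:83578637-83578886 and Xcl1 at chr1:164935523-164935772, all on the minus strand and written 5' to 3'. Capitals mark matches, on either strand, to 6 short motifs.
Ccl3: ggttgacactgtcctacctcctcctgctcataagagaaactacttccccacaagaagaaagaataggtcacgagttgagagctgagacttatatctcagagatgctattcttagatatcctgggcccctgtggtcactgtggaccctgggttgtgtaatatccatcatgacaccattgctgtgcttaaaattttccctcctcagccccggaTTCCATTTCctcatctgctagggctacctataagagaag
Ccl9: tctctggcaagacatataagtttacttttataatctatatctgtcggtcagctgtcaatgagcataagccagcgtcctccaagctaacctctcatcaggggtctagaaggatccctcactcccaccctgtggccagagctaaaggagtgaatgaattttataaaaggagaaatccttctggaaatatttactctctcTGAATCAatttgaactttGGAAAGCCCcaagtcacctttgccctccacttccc
Xcl1: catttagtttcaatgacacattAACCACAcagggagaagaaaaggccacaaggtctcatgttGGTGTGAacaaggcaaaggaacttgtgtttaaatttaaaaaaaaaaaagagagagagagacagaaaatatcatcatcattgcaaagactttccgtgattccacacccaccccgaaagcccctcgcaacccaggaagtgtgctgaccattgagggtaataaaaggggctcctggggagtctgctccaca
The motifs were STAT (TTCNNNGAA), ISRE (GAAANNGAA), NF-kB (GGNNNTTCC), T-box (GGTGTGA), RUNX (TGTGGTT) and AP-1 (TGANTCA), and 0 pairs of matches overlapped. Of 32536 promoters of this length, 7.0% hold the STAT motif, 7.1% the ISRE, 15.7% NF-kB, 3.3% T-box, 4.4% RUNX and 6.7% AP-1. Ccl3 held 1 ISRE match, from position -39 to -31 relative to the start. Ccl9 held an AP-1 match from -53 to -47 and an NF-kB match from -35 to -27. Xcl1 held a RUNX match from -228 to -222 and a T-box match from -188 to -182. The motifs of Ccl3 and Ccl9 were not the same ones, and none of the 3 windows had the STAT letters. A match describes the letters and is not evidence of a binding site.

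Ccl5 fell with IL-2 and IL-4 and stood near the control level with IL-21. Its levels were 10.41, 10.63 and 11.02 in media control. IL-2 gave 8.54, 8.15 and 9.37 and IL-4 gave 8.63, 7.93 and 9.11. All arrays of both cytokines lay below all control arrays. The fall with IL-2 was -2.00 (4.01-fold lower, SE 0.32, adjusted p = 4.6e-04), at -2.18 within the RNeasy replicates and -1.65 within replicate 3. With IL-4 it was -2.13 (4.39-fold lower, SE 0.32, adjusted p = 5.5e-04), at -2.25 and -1.91. Both calls held with any 1 array or replicate number left out. On the deposited values, without renewed normalization, the adjusted p was 0.0845 with IL-2 and 0.219 with IL-4, at differences of -1.96 and -1.65.

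With IL-21, Ccl5 read 11.16, 11.13 and 10.58, which overlapped media control (difference 0.27, 95% interval -0.41 to 0.94). With IL-15 it read 10.60, 10.40 and 10.11, also overlapping (-0.32, -0.996 to 0.35). IL-7 lay between, at 9.80, 9.41 and 9.90, below every control array. Its difference of -0.99 had an adjusted p of 0.140 without and 0.0299 with the replicate block. The order of group means was IL-21, media control, IL-15, IL-7, IL-2 and IL-4. Of its neighbours, IL-7 and IL-2 differed with the block and not in the main fit (-1.02, adjusted p = 0.0330 and 0.158).

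Xcl1 showed the widest fall of the 7 genes. It was 10.74, 10.77 and 10.90 in media control and 6.29, 6.83 and 7.43 with IL-2, where 1 of 3 arrays reached background. The groups did not overlap, and the difference was -3.95 (SE 0.36, adjusted p = 7.3e-06), which is at least 12.5-fold lower with the arrays under background set to that level. With IL-4 the levels were 8.03, 6.85 and 8.13, a difference of -3.13 (8.77-fold lower, SE 0.36, adjusted p = 6.4e-05). With IL-21 they were 7.63, 7.49 and 8.43, a difference of -2.95 (7.74-fold lower, SE 0.36, adjusted p = 9.5e-05). Replicate 3 and the RNeasy replicates had the same sign, at -3.46 and -4.20 under IL-2, at -2.77 and -3.32 under IL-4, and at -2.47 and -3.19 under IL-21. These 3 calls held with any 1 array or replicate number left out and on the deposited values.

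With IL-7, Xcl1 read 9.52, 8.97 and 10.01, below all control arrays and above all arrays of IL-21, IL-2 and IL-4. Its difference from media control was a 2.47-fold lower level (SE 0.36 on the log2 scale), with an adjusted p of 0.0806 without and 0.00664 with the replicate block. With IL-15 it read 10.54, 10.73 and 10.42, each just under the lowest control array of 10.74. That difference was -0.24 (95% interval -0.999 to 0.52). In the order of group means (media control, IL-15, IL-7, IL-21, IL-4, IL-2), the one step between neighbours that passed was that from IL-7 to IL-21. Ccl5 had the same descending order over media control, IL-15, IL-7 and IL-2, but its highest mean was that with IL-21.

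Cxcl10 was low throughout and varied most by replicate number. Media control read 7.46, 7.70 and 4.97, IL-15 7.58, 6.77 and 5.39, and IL-7 7.08, 5.69 and 5.55. Every array of IL-2 (6.26, 5.34 and 5.57), IL-4 (6.37, 5.47 and 5.04) and IL-21 (6.43, 6.52 and 4.63) was below background. Replicate 3 lay below the group mean in all 6 groups, by 0.91 on average. None of its 5 differences from media control, -0.13 to -1.09, passed over all arrays with or without the replicate block. Within the RNeasy replicates alone it was -1.78 with IL-2 and -1.66 with IL-4, against 0.60 and 0.07 within replicate 3. Without replicate 3 of every group, and with those arrays normalized anew, the IL-2 difference passed (-1.845, adjusted p = 0.0250), and with the block added, a setting chosen after seeing the data, so did those of IL-2, IL-4, IL-7 and IL-21 (adjusted p = 0.00227, 0.00517, 0.0361 and 0.0430). The summed myeloid level of replicates 1, 2 and 3 was 12.47, 13.56 and 12.67 in media control and 12.12, 12.84 and 12.26 with IL-15. The array with the highest Cxcl10 had the highest of these sums in media control (replicate 2) and the lowest with IL-15 (replicate 1). The part of other cells was not tested.

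Ccl1 was below background in all 18 arrays, with group means of 5.24 to 5.81. Its differences from media control were -0.49 for IL-2, -0.48 for IL-4 and -0.57 for IL-21, with adjusted p of 0.111, 0.164 and 0.104. With the replicate block these were 0.0225, 0.0326 and 0.0152. No fold is given, since both groups were under background.

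**Figure D3:**
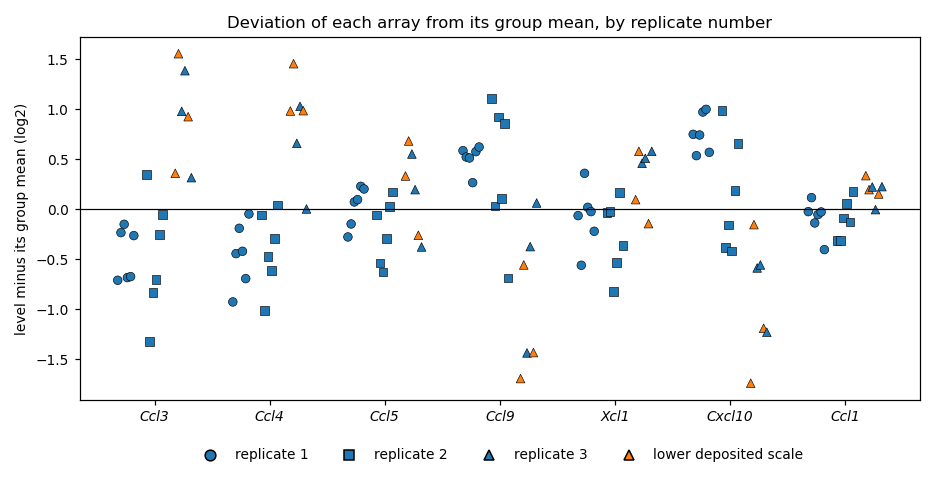
Level of each array minus the mean of its group (vertical axis, log2), by gene and replicate number (circles, squares and triangles for replicates 1, 2 and 3, orange for the 3 arrays deposited on a lower scale), 6 arrays per replicate number. Replicate 3 lies above the group mean in 6 of 6 groups for Ccl3 and Ccl4 and below it in 6 of 6 groups for Cxcl10.

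The replicate number moved single members in opposite directions. For Ccl3 and Ccl4, replicate 3 was above its group mean in 6 of 6 groups, by 0.92 and 0.85 on average. For Ccl9 it was below in 5 of 6 groups, by 0.91 on average. Xcl1 and Ccl5 deviated less, by 0.35 and 0.19. The kit, the replicate and, in 3 groups, the lower scale go together in replicate 3 and cannot be told apart. The arrays deposited on the lower scale and the other replicate 3 arrays lay on the same side for Ccl3, Ccl4 and Cxcl10.

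The second question was where the cytokines differed from each other at the same dose and time. Over 10 pairs of cytokines and 7 members, 70 differences were tested, and 17 passed in the main fit, which has no replicate block. IL-21 differed from IL-2 in 3 members (6.58% of all genes called), from IL-4 in 4 (3.81%), from IL-7 in 2 (2.24%) and from IL-15 in 2 (3.54%). IL-15 differed from IL-2 in 2 members (8.60%) and from IL-4 in 2 (3.64%), and IL-7 from IL-2 and from IL-4 in 1 each (1.42% and 1.34%). IL-2 against IL-4 gave 0 members (2.07%) and IL-7 against IL-15 0 (0.0110%), by limma, with 2 and 1 members and 1915 and 808 of all genes at an unadjusted p under 0.05. With the replicate block 30 of the 70 passed, all 17 among them, while the share of all genes called rose as well. For IL-21 it rose to 21.4% against IL-2, 11.7% against IL-4, 8.89% against IL-7 and 12.6% against IL-15. For IL-15 it was 22.4% against IL-2, 14.1% against IL-4 and 0.335% against IL-7, for IL-7 11.1% and 5.18% against IL-2 and IL-4, and between those last 2 cytokines 10.6%. Without replicate 1 of every group 2 of the 17 remained, both for Xcl1 (IL-2 and IL-4 against IL-15), and without replicate 2 there were 6, all for Xcl1 or Ccl5.

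**Figure D4:**
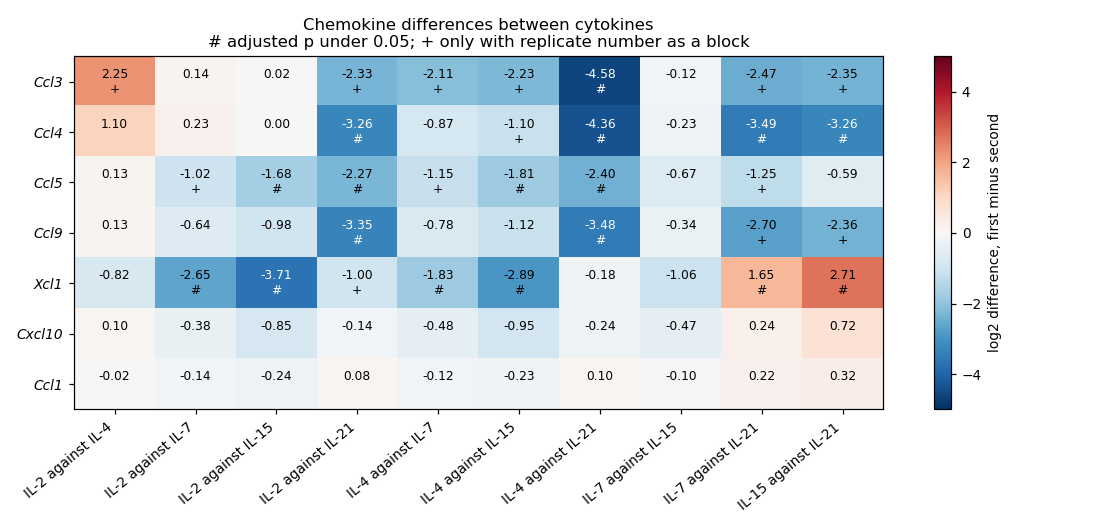
Log2 difference of each chemokine (rows) between the 10 pairs of cytokines (columns), first named minus second named, with the colour giving size and direction. A # marks an adjusted p under 0.05 in the main fit and a + one that passed with the replicate number as a block and not in the main fit; the darkest cells are Ccl3 and Ccl4 for IL-4 against IL-21, at -4.58 and -4.36.

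IL-21 and IL-4 lay farthest apart. The difference, IL-4 minus IL-21, was -4.58 for Ccl3 (at least 14.2-fold, the arrays under background set to that level, adjusted p = 8.1e-04) and -4.36 for Ccl4 (20.5-fold, adjusted p = 5.2e-04). It was -2.40 for Ccl5 (5.28-fold, adjusted p = 2.5e-04) and -3.48 for Ccl9 (adjusted p = 0.0113). Xcl1 did not separate them, with a difference of -0.18 (95% interval -0.94 to 0.58). The Ccl9 call was lost without replicate 3 of IL-4 (adjusted p = 0.0672) or replicate 1 of IL-21 (0.0614), besides the replicate numbers named above, and on the deposited values (0.426).

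Against IL-2, IL-21 was higher for Ccl4 (IL-2 minus IL-21 -3.26, adjusted p = 0.00500), for Ccl5 (-2.27, adjusted p = 4.4e-04) and for Ccl9 (-3.35, adjusted p = 0.0113). Ccl3 differed by -2.33, with an adjusted p of 0.0615 without and 0.000838 with the replicate block. For Xcl1 the difference was -0.999, which passed with the block and not in the main fit (adjusted p = 0.0189 and 0.123). The Ccl9 call was lost without replicate 1 of IL-21 (adjusted p = 0.0534) and on the deposited values (0.201).

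Against IL-7 and IL-15, IL-21 stood higher for Ccl4 and lower for Xcl1. For Ccl4 the differences, IL-7 and IL-15 minus IL-21, were -3.49 (11.2-fold, adjusted p = 0.00552) and -3.26 (9.55-fold, adjusted p = 0.00706). For Xcl1 they were 1.65 (3.13-fold, adjusted p = 0.0201) and 2.71 (6.55-fold, adjusted p = 3.1e-04). The IL-7 difference of Xcl1 was lost without replicate 1 or 3 of IL-7 (adjusted p = 0.0760 and 0.120) or replicate 1 or 2 of IL-21 (0.0981 and 0.116), in a fit of these 2 groups alone (0.0575), and on the deposited values (0.645), where the IL-15 difference was lost too (0.0765). Ccl3 did not pass in the main fit and passed with the block in both pairs (-2.47, adjusted p = 0.0956 and 0.00124, and -2.35, 0.0896 and 0.00131), as did Ccl9 (-2.70, 0.0787 and 0.00229, and -2.36, 0.110 and 0.00448). In fits of 2 groups alone, Ccl3 against IL-15 and Ccl9 against IL-7 passed too (0.0419 and 0.0105). Ccl5 differed from IL-7 by -1.25 (adjusted p = 0.0540, 0.0119 with the block) and from IL-15 by -0.59 (95% interval -1.26 to 0.09). The Ccl5 difference from IL-7 also passed in a fit of the 2 groups alone (0.0316) and with the kit as a covariate (0.0171). It passed too with median centring (0.0452) and with dim genes removed (0.0355).

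Xcl1 and Ccl5 were higher with IL-15 than under IL-2 or IL-4. For Xcl1 the differences, IL-2 and IL-4 minus IL-15, were -3.71 (at least 10.6-fold, by the same floor, adjusted p = 2.4e-05) and -2.89 (7.42-fold, adjusted p = 2.1e-04). For Ccl5 they were -1.68 (3.21-fold, adjusted p = 0.00339) and -1.81 (3.51-fold, adjusted p = 0.00368), and within replicate 3 they were -0.73 and -0.99 against -2.16 and -2.22 within the RNeasy replicates. On the deposited values both Ccl5 calls were lost (adjusted p = 0.397 and 0.647), as was that of Xcl1 for IL-4 (0.0562). A fit of the 2 groups alone ended the Ccl5 call for IL-2 (0.0658). Ccl3 was lower with IL-4 than with IL-15 in each array (-2.23, adjusted p = 0.113, 0.00197 with the replicate block). Xcl1 was likewise higher with IL-7 than under IL-2 (-2.65, adjusted p = 0.00199) or IL-4 (-1.83, adjusted p = 0.0151), the latter lost without replicate 2 of IL-4 (0.0922) or replicate 1 or 3 of IL-7 (0.0622 and 0.105). On the deposited values neither passed (0.0539 and 0.549), and in a fit of the 2 groups alone the IL-4 difference did not (0.0831). IL-4 minus IL-7 was -2.11 for Ccl3 (adjusted p = 0.269, 0.00585 with the block) and -1.15 for Ccl5 (0.117, 0.0291 with the block), each without overlap of the groups.

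IL-2 and IL-4 were close for Ccl5 (IL-2 minus IL-4 0.13, 95% interval -0.54 to 0.81) and for Ccl9 (0.13, -1.44 to 1.70). Ccl3 had the largest of their 7 differences, 2.25 (at least 2.83-fold by the same floor, adjusted p = 0.139, 0.00240 with the replicate block), with the same sign in 3 of 3 replicate numbers. Xcl1 differed by -0.82 (95% interval -1.58 to -0.06, adjusted p = 0.409). Between IL-7 and IL-15, Xcl1 differed by -1.06 (-1.82 to -0.30) and Ccl5 by -0.67 (-1.34 to 0.01), neither of which passed with or without the block (adjusted p = 0.963 for both without it).

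The members also shared patterns over the 18 arrays once the mean of each replicate number was taken off. Ccl3 and Ccl4 correlated at r = 0.925, Ccl4 and Ccl9 at 0.791, and Ccl3 and Ccl9 at 0.754. Xcl1 correlated with Ccl4 at -0.19. These values describe arrays that share groups, and carry no test. Among 8321 other genes above background, those most like Ccl4 were Hopx, a homeodomain-only protein (r = 0.958), Snx9 (0.956) and the acetyltransferase gene Ep300 (0.953). Hopx stood at 13.03 ± 0.18 (SD, n = 3) with IL-21 and 11.19 ± 0.45 in media control. For Ccl3 they were Tmem185a, Agpat4 and Snx10 (0.919, 0.916 and 0.911), and for Ccl9 D5Ertd579e, the metal transporter gene Slc11a2 and Gucd1 (0.929, 0.909 and 0.906).

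For Ccl5 the nearest genes were Emb, which encodes embigin (r = 0.970), Klhl6 (0.967) and Scarb2 (0.967). Emb fell from 13.26 ± 0.12 in media control to 11.42 ± 0.49 under IL-2 and 10.98 ± 0.43 under IL-4, while with IL-21 it was 13.55 ± 0.13. For Xcl1 they were Cdk19, Ift80 and Ehd3, all at 0.974. Ift80 was 10.52 ± 0.11 in media control, 8.27 ± 0.15 with IL-2 and 8.53 ± 0.14 with IL-21. The genes nearest Cxcl10 were the NF-kB inhibitor gene Nfkbie (0.867), Cd274, which encodes PD-L1 (0.863), and Acad11 (0.858), and those nearest Ccl1, itself under background, were Gigyf1, Krtcap3 and Tcf20 (0.837, 0.817 and 0.815).

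Of 28 other chemokine ligands, 27 were measured and 0 passed against media control with any cytokine (limma), while 3 lay above background in their mean over the arrays. The share of all genes called ran from 0% with IL-15 to 15.8% with IL-2. These 27 had median changes of -0.12 under IL-2, -0.13 under IL-4 and -0.23 under IL-7, and of -0.03 under IL-15 and -0.30 under IL-21. Ccl6, a neighbour of Ccl9 in the same cluster, was 8.04 ± 2.33 (SD, n = 3) in media control and 7.53 ± 1.53 with IL-21. Cxcl9 and Cxcl11, the other interferon-induced ligands of CXCR3, were at 6.51 ± 1.62 and 4.74 ± 0.17 in media control. Ccl6, Cxcl9 and Cxcl11 are named for their place beside the members, and not for their values.

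Of 6 measured receptor genes for the members, 1, Cxcr3, lay above background. Cxcr3, the receptor of Cxcl10 on activated T cells, fell by 2.29 with IL-2 (adjusted p = 1.6e-05), by 1.90 with IL-4 (adjusted p = 1.1e-04) and by 1.24 with IL-21 (adjusted p = 0.00361) from 12.06 ± 0.27 (SD, n = 3) in media control. The receptor transcripts Ccr1, Ccr3, Ccr8 and Xcr1 stayed under background in media control and with IL-21, at 3.41 to 6.47.

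Of 15 transcription factors linked to chemokine genes, 13 were measured. Of these, 3 rose and 5 fell under IL-2, 3 rose and 3 fell under IL-4, 2 rose under IL-7, 0 changed under IL-15, and 3 rose and 2 fell under IL-21. Prdm1, which encodes Blimp-1, rose most with IL-21 (3.70, adjusted p = 4.4e-06), and by 2.46 with IL-2, 2.02 with IL-4 and 1.44 with IL-7. Klf2, a factor of resting T cells, fell, with changes of -3.41 for IL-2, -3.59 for IL-4 and -2.87 for IL-21. Eomes, a T-box factor of CD8+ T cells, rose with IL-4 by 2.02 (adjusted p = 0.00132). Klf13 is known as an activator of the Ccl5 promoter in T cells. It fell by 1.17 with IL-2 (adjusted p = 0.00112) and by 0.79 with IL-4 (adjusted p = 0.0264). The part of these factors in the chemokine differences was not tested. Of 24 interferon-induced genes, 22 were measured. With IL-2, 1 rose and 8 fell (15.8% of all genes called), among them Irf7 (-1.77, adjusted p = 0.00126) and Irf1 (-1.51, adjusted p = 0.00136). With IL-4, 2 of the 22 rose, Socs1 by 1.72 and Mx1 by 1.39, a share near the 9.07% of all genes called. With IL-21, 3 fell (6.67% of all genes called), of which Iigp1 had the largest change (-2.51, adjusted p = 0.0175).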

How the data were processed

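RNA of 18 samples was hybridised to Affymetrix mouse arrays. The authors summarised each probe set by RMA in Expression Console, and the deposited log2 values that resulted were the starting point. Scanner files were not analysed here. Of 45101 probe sets, 34958 had 1 gene symbol in the platform annotation; 932 with several symbols and 9211 not listed were left out. For each of 18194 genes the probe set with the highest mean over the 18 arrays was taken, after a renewed quantile normalization. All genes were kept whatever their level.

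Groups came from the labels. A limma 3.58.1 fit (R 4.3.3; lmFit and eBayes, two-sided) over all 18 arrays, with a mean per group and 12 residual degrees of freedom and without covariates, gave 15 comparisons, each adjusted by the Benjamini-Hochberg method over all genes, at a threshold of 0.05. It was tested on simulated data, in which arrays of the same replicate number did not deviate together as they do here. Figures were made with Python 3.11.15 and matplotlib 3.10.9. Once each gene's group means were taken off, arrays that the labels give the same replicate number deviated together (correlation over genes of at least 0.442 in 45 pairs, with a median of 0.598, and at most 0.383 in 90 other pairs). The replicate block takes the numbers to pair the samples, and the main fit leaves this pairing out. Of 105 member tests, 24 passed in the main fit and 46 with the block. The members and the lists were chosen with earlier results of these data known. The text names all 7 members and, for each member, the 3 genes of most similar pattern by Pearson r. From the gene lists described it names some, not all, of the 4 genes with the largest change among those that passed in a comparison with media control. Cell markers and receptors that did not pass, 3 chemokine ligands, and Klf13 for its link to Ccl5, are named outside this rule. Alternatives were the deposited values, median centring, the replicate block, the kit as a covariate, removal of dim genes, the mean of all probe sets, fits of 2 groups alone, a mean-variance trend, and each replicate number or array left out. Fits without the 3 arrays on the lower scale and of the RNeasy arrays with the block were chosen after seeing the data.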

Additional observations from a re-analysis of the deposited data

How the results depend on the processing

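No called difference of a member changed sign under any alternative run. Against media control, the members called went from 2 to 1 with IL-2 and from 2 to 1 with IL-4 on the deposited values, and the differences called among the cytokine pairs from 17 to 10, with 8 of the 17 kept. With the replicate block (the pairing by replicate number) the calls were 4 for IL-2, 5 for IL-4, 2 for IL-7, 5 for IL-21 and 30 among the pairs. The block ended 0 calls, added 22 of 105 and changed no other. The kit as a covariate gave 4, 5, 2, 5 and 28. The RNeasy arrays alone with the block gave 4, 5, 4, 5 and 37, a setting chosen after seeing the data. Removing dim genes, which takes Ccl1, Ccl9 and Cxcl10 out, called 1 member with IL-7, Xcl1 (adjusted p = 0.0432). Leaving out replicate numbers or arrays, the calls ranged from 2 to 4 for IL-2 and for IL-4, 0 to 1 for IL-7, 1 to 3 for IL-21 and 2 to 29 among the pairs, where 2 was the count without replicate 1 and 29 that without replicate 3. Leaving out IL-4 replicate 2 called Xcl1 with IL-7 (adjusted p = 0.0466). Over all genes the counts moved with the setting, from 2880 with IL-2 to 74 on the deposited values and 5560 with the block, from 1651 to 67 and 4686 for IL-4, from 306 to 8 and 2974 for IL-7, and from 1214 to 90 and 3837 for IL-21. The causes were not tested. What the signal limits is the size of changes under background, for Ccl1 and Cxcl10 in most arrays, for Ccl9 with IL-2, IL-4 and IL-7, for Ccl3 with IL-4 and for Xcl1 with IL-2.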
